A study of Mus musculus with 10 samples.

Results

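The genes described here encode the motors that move cargo along microtubules: kinesin heavy chains (Kif genes), kinesin-1 light chains (Klc genes), and the chains of cytoplasmic dynein (Dync, Dynll and Dynlt genes). They were chosen by symbol and by a minimum of 50 unique molecular identifiers (UMIs) over the 10 libraries, and 51 of the 34254 features met both conditions. The names alone matched 66 symbols, of which 15 had fewer UMIs. Kif20b, with 83 UMIs, had the fewest among the genes kept, and Kif11, with 43, had the most among those left out. Of the 51 genes, 31 encode kinesin chains and 20 encode dynein chains.

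The study profiled retinal ganglion cells (RGCs) by single-cell RNA-seq (scRNA-seq) in 6 uninjured libraries and in 4 libraries made 2 weeks after optic nerve crush (ONC). ONC severs RGC axons in the optic nerve. The comparison asks how the RNA levels of motor genes differ between RGCs with intact axons and RGCs alive after their axons were severed. Per the paper, most RGCs die by 2 weeks after ONC, so the injured libraries hold survivors. Words such as rose and fell compare these groups of cells. Whether differences came from which RGCs survived or from change within cells was not tested. Uninjured libraries held 98 to 651 cells (1683 in all) and injured libraries 273 to 527 (1609 in all). The injured total counts the 421 barcodes shared by injured 3 and 4 once for each of these libraries. Total UMIs ran from 2839693 to 23180399 in uninjured and from 4698799 to 8860536 in injured libraries. The animals were wild-type 129S1/SvImJ mice, 12 weeks (84 days) of age and of both sexes, and their retinas were pooled, 10 to a batch, so a library is a pool of animals. RGCs were enriched by immunopanning on Thy1 after macrophages had been depleted in the same way, and the paper's methods name amacrine cells beside macrophages there.

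Kinesins of the kinesin-1, -2 and -3 families walk toward microtubule plus ends, which in axons point to the terminal, and carry vesicles, mitochondria and cytoskeletal proteins outward from the cell body. Cytoplasmic dynein-1 walks toward minus ends and returns endosomes, autophagosomes and injury signals to the cell body, as a complex of paired heavy, intermediate, light intermediate and light chains that works with dynactin. Other kinesins act on the microtubules themselves or in cilia and spindles.

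Some libraries stood apart. Injured 3 and injured 4 shared 421 cell barcodes and differed from each other by no more than counting noise (median chi-square over genes 0.985 times that of counting noise alone), so they were averaged as 1 sample, called injured 3/4, and the comparison had 6 uninjured and 3 injured samples. Any other pair shared at most 1 barcode. Xist, an RNA of cells with 2 X chromosomes, was found in 62.1% of cells of injured 1 and 67.4% of injured 2, and in no more than 0.569% of cells elsewhere, so by this marker the uninjured libraries held almost no female cells and sex differed between the groups compared. The part of sex in the differences below was not tested. UMIs of mCherry, a fluorescent reporter that the labels do not mention, were found in 7.99% of cells of injured 1, 15.0% of injured 2, 86.0% of injured 3 and 84.3% of injured 4, and in 0 cells of the uninjured libraries. This reporter therefore differed between the groups compared and among injured libraries. Its part in the differences below was not tested. Uninjured 5 and 6 resembled each other (ratio 1.47) but differed from uninjured 1 to 4 (11.1 to 21.2). Uninjured 1 and 2 (1.82), uninjured 3 and 4 (1.87) and injured 1 and 2 (2.28) also resembled each other. Uninjured 1 or 2 set against uninjured 3 or 4 gave 3.86 to 4.13. Injured 1 or 2 set against injured 3 or 4 gave 4.76 to 5.12. The main test took these pairs as separate samples, and an alternative summed similar libraries. Malat1, a nuclear RNA, made up 1.72 to 4.88% of UMIs in uninjured and 6.09 to 8.01% in injured libraries. Ribosomal protein genes made up 3.02 to 4.02% and 4.70 to 5.83%.

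The cells carried RGC markers in every library: 8 of 8 listed genes had UMIs, and their summed level was 6763 to 8242 CPM in uninjured and 4536 to 5866 CPM in injured libraries. These sums over marker lists are UMI counts per library total (CPM), and levels of single genes and of motor families are CPM with library sizes adjusted by the trimmed mean of M values. Because the assay counts the 3′ end of each captured molecule, CPM were not divided by gene length. Within the RGC list, Tubb3 rose (956, 1110 and 1719 CPM, beside 374 to 781 CPM uninjured). Rbpms (293, 284 and 328 CPM, beside 623 to 766 CPM), Pou4f1, Sncg, Nefl and Nefm fell. Slc17a6 and Thy1 did not pass. The summed Mueller glia list, of which Clu was the largest part in injured libraries, was 205 to 285 CPM in uninjured and 311 to 480 CPM in injured libraries. Of its 7 genes tested, 4 rose and 2 fell. Clu was at 290, 335 and 195 CPM in injured samples, beside 67.7 to 126 CPM uninjured. Glul was at 77.9, 93.9 and 74.9 CPM, beside 39.6 to 47.5 CPM. Vim was at 38, 44.7 and 34.6 CPM, beside 0.337 to 2.76 CPM. Rlbp1 was at 9.98, 11.2 and 8.86 CPM, beside 0 to 5.34 CPM. Dkk3 was lower, at 19.4, 16.6 and 10.7 CPM, beside 66.7 to 111.5 CPM. Apoe was at 1.58, 3.14 and 1.34 CPM, beside 2.76 to 16 CPM, which overlapped. Slc1a3, which did not pass, was at 0.525, 1.35 and 1.34 CPM, beside 0 to 5.87 CPM. Aqp4, which was not tested, was at 0.175, 0 and 0 CPM, beside 0 to 1.88 CPM, so the list went both ways. The amacrine list gave 391 to 567 and 329 to 439 CPM. Within it, C1ql2 had higher levels in injured samples (189, 183 and 215 CPM, beside 7.48 to 28.7 CPM uninjured). Slc6a9 had higher levels too (21.2, 18.9 and 21.8 CPM, beside 1.40 to 12.7 CPM). Pax6 had lower levels (119, 121 and 76.3 CPM, beside 299.8 to 354 CPM). Tfap2a, Tfap2b, Gad1, Gad2 and Slc32a1 did not pass. Single genes of these lists were named after their values were seen. The bipolar list gave 183 to 266 and 182 to 208 CPM, of which Prkca and Isl1 made up most. Rod, cone, microglia, endothelial, astrocyte and cycling cell lists stayed below 32.4 CPM in every library. The part of these other cell types in the differences below was not tested.

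Motor genes changed after ONC about as often as other genes, and among dynein chains more rose than fell. In edgeR's quasi-likelihood test (Benjamini-Hochberg over 14234 genes), 24 of the 49 motor genes tested passed an adjusted p of 0.05 (49.0%), beside 44.0% of all genes tested. Of these, 15 rose (30.6%, beside 21.3% of all genes) and 9 fell (18.4%, beside 22.7%), and 25 did not pass. The falls include Kif6, Kif17, Kif26a and Dynlt5, and the rises Kif19b and Dynlt2a3. These genes met the minimum of UMIs only through the group where they were higher, so the choice of genes favoured such calls. Among the 31 motor genes with a mean of at least 20 CPM in either group, which leaves these genes out, 10 rose and 4 fell (45.2% passed). The median log2 fold change was 0.08 for motor genes and -0.03 for all genes. The groups were fully separate for 22 motor genes (44.9%, beside 42.9% of all genes), and 3 genes passed the test although their samples overlapped. Kif15 and Kif20b did not pass the filter on low counts and were not tested.

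Kinesin and dynein chains were counted apart, without a test of the difference between them. Among 29 kinesin chains tested, 7 rose and 6 fell (44.8% passed), with a median of 0.01. Among 20 dynein chains, 8 rose and 3 fell (55.0%), with a median of 0.32. Of those 8, 3 are near-identical copies of Tctex light chains, and without all 6 such copies 5 of 14 rose and 3 fell, with a median of 0.22. The genes that met the minimum of UMIs only through the group where they were higher are part of these counts. They are Kif6, Kif17, Kif26a and Kif19b among kinesin chains, and Dynlt5 and Dynlt2a3 among dynein chains. Scaling by upper quartile moved the median of all genes to -0.08, and library totals moved it to -0.10. The kinesin median then turned to -0.04 and -0.07, while the dynein median was 0.27 and 0.25. Other settings moved the kinesin median further, to -0.16 in thinned cells, -0.10 among cells with 3 to 5% Malat1 and -0.11 without uninjured 5 and 6. Cells with 3 to 5% Malat1 numbered 7 and 8 in uninjured 5 and 6, and 35 to 278 in uninjured 1 to 4. Injured libraries held 49 to 82 of them. The dynein median less that of all genes ran from 0.29 among those Malat1 cells to 0.47 without uninjured 5 and 6, and in the Malat1 cells 27.8% of dynein chains passed, beside 32.9% of all genes. Counts of genes that passed moved more than this between settings. Cells thinned to 8000 UMIs each gave 9 motor genes higher and 8 lower (38.6% passed, beside 40.3% of all genes), cells with 3 to 5% Malat1 gave 7 and 6 (33.3%, beside 32.9%), and libraries summed in similar pairs gave 8 and 4 of 51 (beside 4181 of 15454 genes). Leaving out uninjured 5 and 6, a choice made after seeing the data, gave 18 and 15 (66.0%, beside 54.1% of all genes), a difference that was not tested. Leaving out injured 2 gave 5 lower.

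**Figure D1:**
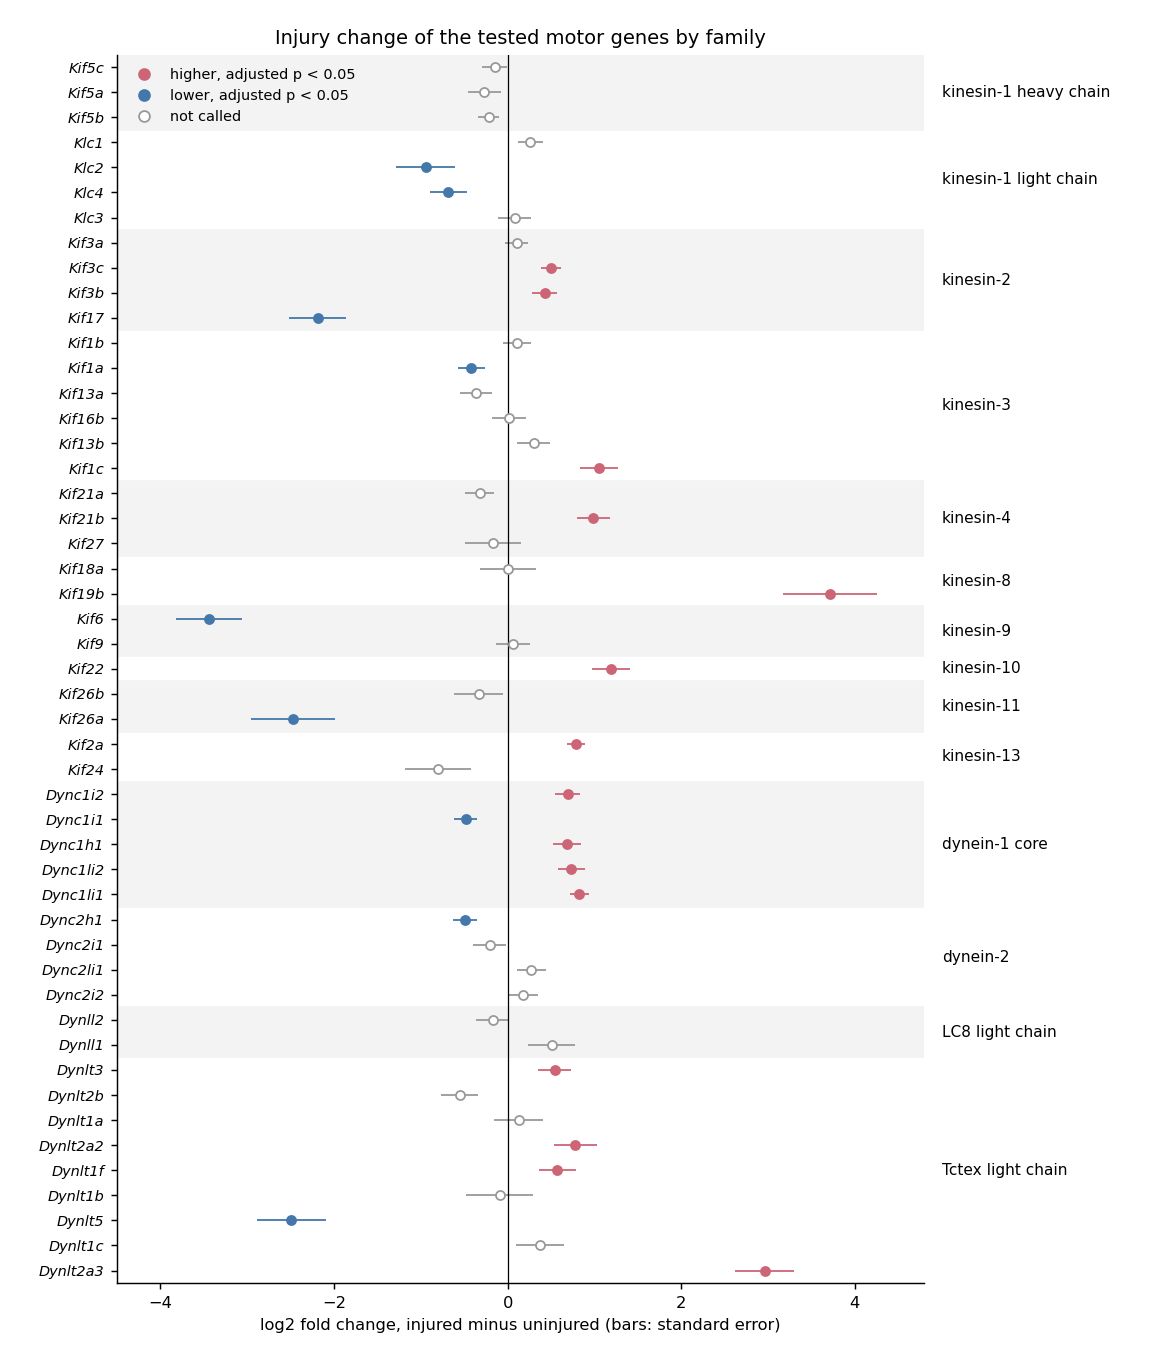
Log2 fold change (injured minus uninjured, horizontal axis) of the 49 motor genes tested, with standard errors as bars, grouped by family and ordered by uninjured level. Filled points passed an adjusted p of 0.05: 15 to the right of 0 and 9 to the left, with 4 of the 5 dynein-1 core chains on the right.

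Summed by direction of transport, dynein-1, a minus-end motor, was higher in every injured sample. Dynein-2, which also walks toward minus ends, was lower in every injured sample and is given below. The sum of the plus-end motors overlapped between groups. Kifc genes were not matched by the symbols chosen, and Kifc2, a minus-end kinesin, is given below with the partners. The 5 core chains of dynein-1 summed to 698, 777 and 818 CPM (lowest, median and highest uninjured) and to 1164, 1059 and 1022 CPM in injured 1, 2 and 3/4. All 3 injured samples lay above all 6 uninjured samples, with means of 765 ± 45.8 (SD, n = 6) and 1082 ± 73.9 CPM (SD, n = 3), a 1.42-fold difference that was 1.34-fold by library totals and 1.37-fold without uninjured 5 and 6. The 13 heavy chains of kinesin-1, -2 and -3 summed to 1866, 2326 and 2565 CPM in uninjured samples and to 2251, 2113 and 2024 CPM in injured samples. These ranges overlapped, with means of 2266 ± 297 and 2130 ± 115 CPM (0.940-fold). Within it, kinesin-2 (4 genes) lay above the uninjured range, at 251, 285 and 304 CPM and at 348, 309 and 340.4 CPM (1.19-fold), while kinesin-1 (0.866-fold) and kinesin-3 (0.942-fold) overlapped. The sum of these kinesins over Dync1h1, the dynein heavy chain that holds the motor domain, was 12.0, 13.2 and 16.9 in uninjured samples and 7.23, 8.12 and 9.08 in injured samples, without overlap. The 11 genes of the LC8 and Tctex light chains, which also serve outside dynein, summed to 709, 760 and 965 CPM and to 788, 869 and 1106 CPM, which overlapped. Over all 51 genes, the mean was 5203 ± 258 CPM uninjured and 5571 ± 110 CPM injured (1.07-fold, and 1.02-fold by library totals).

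**Figure D2:**
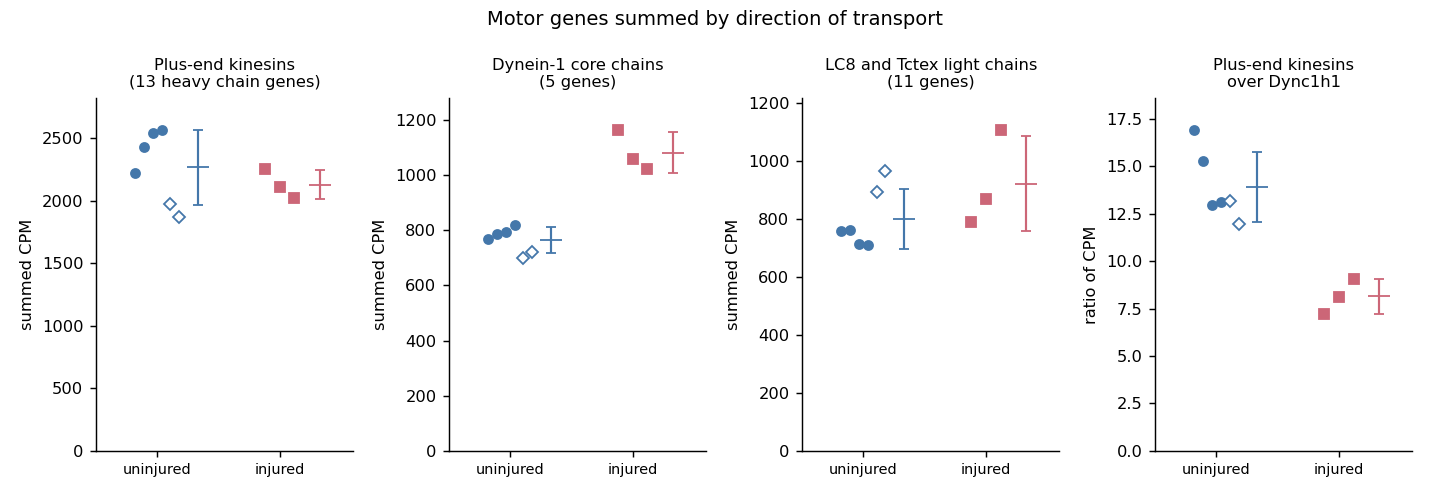
Summed CPM of plus-end kinesin heavy chains, dynein-1 core chains and dynein light chains, and the ratio of plus-end kinesins to Dync1h1, in each uninjured (circles; open diamonds are uninjured 5 and 6) and injured sample (squares), with mean and SD beside them. The dynein-1 core sum lies at 1022 to 1164 CPM in injured and at 698 to 818 CPM in uninjured samples, and the kinesin sums overlap.

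Of the 5 dynein-1 core chains, 4 rose by similar amounts and 1 intermediate chain fell. Dync1h1, the heavy chain (chromosome 12, 110567821 to 110635470, GRCm39), was at 131, 158 and 197 CPM in uninjured samples (lowest, median, highest) and at 311, 260 and 223 CPM in injured 1, 2 and 3/4. Dync1li1, a light intermediate chain that links the motor to cargo adaptors (chromosome 9, 114517768 to 114553383), was at 86.6, 90.9 and 95.5 CPM and at 163, 144 and 179 CPM. Dync1li2, the other light intermediate chain (chromosome 8, 105142786 to 105169699), was at 74.1, 104 and 111 CPM and at 158, 148 and 181 CPM. For each of these 3 genes every injured sample exceeded every uninjured sample. In edgeR's quasi-likelihood test (Benjamini-Hochberg), Dync1li1 rose by 0.83 on the log2 scale (SE 0.11, adjusted p = 8.8e-05), Dync1li2 by 0.74 (SE 0.15, adjusted p = 0.0020) and Dync1h1 by 0.68 (SE 0.16, adjusted p = 0.0051). Dync1li1 passed in all 26 alternative settings. Among cells with 3 to 5% Malat1, the changes of Dync1li2 (0.35) and Dync1h1 (0.39) no longer passed, and with similar libraries summed Dync1h1 (0.62) did not pass either.

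The intermediate chains, which bind dynactin, moved in opposite directions. Dync1i2 (chromosome 2, 71042017 to 71094479), the form found in most cell types, was at 190, 215 and 259 CPM in uninjured samples and at 374, 384 and 312 CPM in injured samples. Dync1i1 (chromosome 6, 5725491 to 6029181), the form known for its expression in neurons, was at 168, 192 and 208 CPM and at 159, 122 and 128 CPM. Injured samples lay above all uninjured samples for Dync1i2 and below them for Dync1i1. In edgeR's quasi-likelihood test (Benjamini-Hochberg), Dync1i2 rose by 0.69 (SE 0.15, adjusted p = 0.0023) and Dync1i1 fell by 0.49 (SE 0.14, adjusted p = 0.013). Dync1i2 made up 49.7, 52.7 and 60.7% of the CPM of both genes in uninjured samples and 70.2, 75.9 and 70.9% in injured samples. The mix was thus near even in uninjured RGCs, while Dync1i2 led in the surviving injured RGCs. Dync1i1 no longer passed without injured 2 (-0.41), with injured 1 and 2 alone (-0.42), among cells with 3 to 5% Malat1 (-0.34) or with similar libraries summed (-0.50), and Dync1i2 did not pass in the last of these (0.64).

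**Figure D3:**
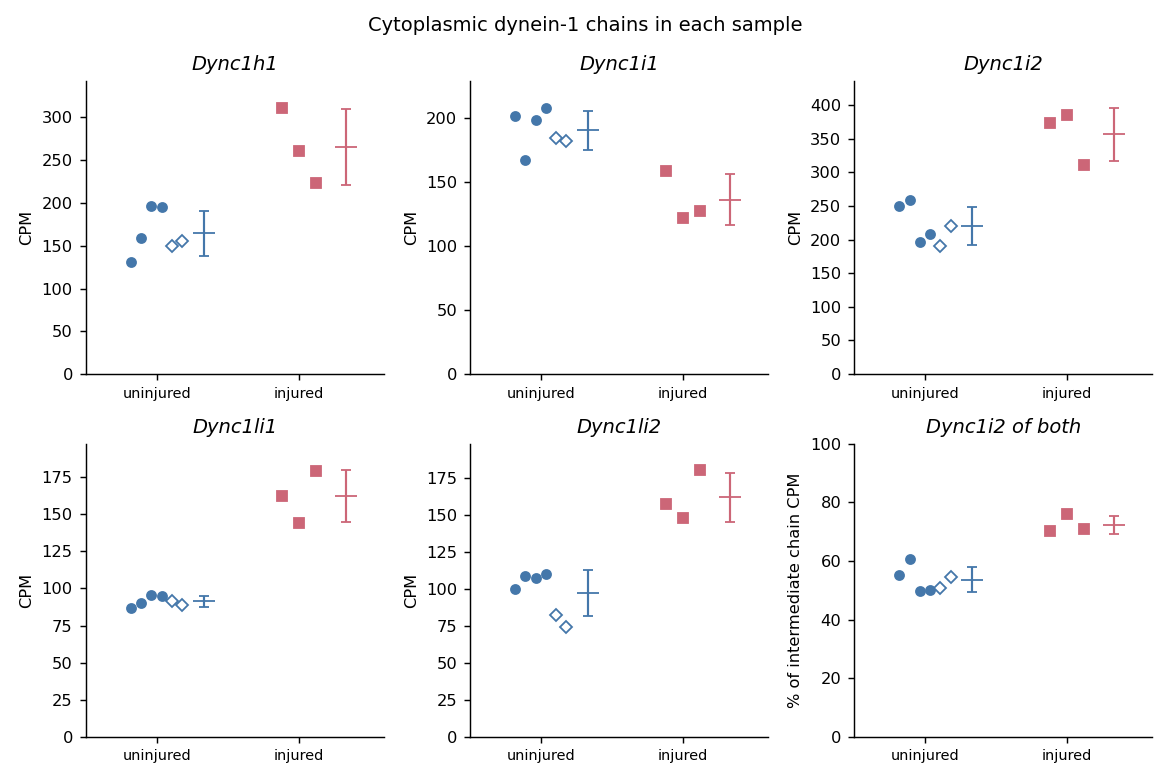
CPM of the 5 dynein-1 core chains, and Dync1i2 as a percentage of the CPM of Dync1i1 and Dync1i2, in each sample; circles and open diamonds (uninjured 5 and 6) are uninjured, squares injured, with mean and SD beside them. Injured samples lie above the uninjured samples in all panels but that of Dync1i1, where they lie below.

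The promoters of dynein-1 core genes are shown because 4 of these genes rose together and 1 fell. RefSeq's table (GRCm38.p6) holds promoters of 34 of the 51 motor genes, among them Dync1h1, Dync1li1, Dync1i2 and Dync1i1, and none of Dync1li2. The 250 bases before the start are printed 5′ to 3′ on the forward strand for chr12:110601145-110601394 (Dync1h1), chr9:114688581-114688830 (Dync1li1), chr2:71211456-71211705 (Dync1i2, the first of 2 listed starts) and chr6:5725389-5725638 (Dync1i1). Capitals mark matches on either strand to any of 7 motifs. These are TGACGTCA, known as the cyclic AMP response element; TGANTCA, known for binding Fos and Jun; CACGTG, which is a form of the E-box; CCGGAAG, which is known for binding factors of the ETS family; CCAAT, whose name is its spelling; GGGCGG, which is known as the GC box; and TATAAA, which is found in promoters with a fixed start.
Dync1h1: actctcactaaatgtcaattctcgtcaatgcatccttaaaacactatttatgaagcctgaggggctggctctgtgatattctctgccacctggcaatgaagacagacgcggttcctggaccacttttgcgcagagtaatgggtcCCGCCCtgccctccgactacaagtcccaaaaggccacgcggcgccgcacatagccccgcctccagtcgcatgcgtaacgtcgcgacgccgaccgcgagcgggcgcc
Dync1li1: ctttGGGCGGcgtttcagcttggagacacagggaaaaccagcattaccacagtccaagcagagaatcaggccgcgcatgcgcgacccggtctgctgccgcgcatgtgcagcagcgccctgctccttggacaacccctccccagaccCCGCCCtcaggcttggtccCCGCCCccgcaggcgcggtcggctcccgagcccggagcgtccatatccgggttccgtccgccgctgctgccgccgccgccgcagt
Dync1i2: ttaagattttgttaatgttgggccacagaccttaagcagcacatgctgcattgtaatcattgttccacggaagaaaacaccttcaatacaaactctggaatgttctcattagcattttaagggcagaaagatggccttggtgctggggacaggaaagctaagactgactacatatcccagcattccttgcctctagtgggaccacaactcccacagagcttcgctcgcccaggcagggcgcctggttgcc
Dync1i1: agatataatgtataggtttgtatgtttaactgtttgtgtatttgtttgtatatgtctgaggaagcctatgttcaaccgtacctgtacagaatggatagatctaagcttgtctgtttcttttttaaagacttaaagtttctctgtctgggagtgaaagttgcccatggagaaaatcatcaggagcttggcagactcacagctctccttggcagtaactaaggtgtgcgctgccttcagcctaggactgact
GC boxes occurred 3 times before Dync1li1, 1 time before Dync1h1, 3 times before the other start of Dync1i2 and 0 times before the first start of Dync1i2 and before Dync1i1. Of 32851 promoters in the table, 32.7% held a GC box, as did 26 of the 39 promoters listed for motor genes. The other 6 motifs, found in 1.55 to 33.8% of promoters, were in none of these windows. A motif of nuclear respiratory factor 1 was also searched at first and matched the Dync1li1 window, and it was left out after this was seen. The share of G and C was 69.6% for Dync1li1, 58.0% for Dync1h1, 48.4% for the first start of Dync1i2 and 40.8% for Dync1i1, beside a median of 52.4% over all promoters. These matches describe the letters of the windows and were not tested for use in RGCs.

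Cytoplasmic dynein-2, which returns cargo within cilia, followed another course than dynein-1. Its heavy chain Dync2h1 was at 73.2, 81.8 and 101 CPM in uninjured samples and at 60.9, 61.5 and 60.7 CPM in injured samples, which lay below all uninjured samples. It fell by 0.49 (SE 0.14, adjusted p = 0.013 in edgeR's quasi-likelihood test, Benjamini-Hochberg), and by 0.48 without injured 1, where it no longer passed. It also did not pass among cells with 3 to 5% Malat1 (-0.50), with similar libraries summed (-0.50) or with injured 1 and 2 alone (-0.46), and passed in 22 of 26 settings. Dync2i1, Dync2i2 and Dync2li1, its other chains, did not pass, with log2 fold changes of -0.21, 0.17 and 0.27. Without uninjured 5 and 6, Dync2i1 (-0.37) and Dync2li1 (0.44) passed. Summed over 4 genes, dynein-2 was at 142 ± 11.8 CPM in uninjured and 119 ± 6.06 CPM in injured samples. The sums of injured 1, 2 and 3/4 (116, 115 and 126 CPM) lay below the uninjured range (127 to 156 CPM).

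The light chains split in another way. Dynll1 and Dynll2 encode LC8, a small hub protein that binds dynein intermediate chains and many other partners, and neither passed the test. Dynll1 was at 200, 251 and 457 CPM in uninjured samples and at 360, 413 and 498 CPM in injured samples. Its uninjured values fell apart, with a mean of 228 CPM in uninjured 1 to 4 and 438 CPM in uninjured 5 and 6. Dynll1 had a log2 fold change of 0.51 over all samples and of 0.89 without uninjured 5 and 6, where it passed, as it did without uninjured 6 alone (0.67), among cells with 3 to 5% Malat1 (1.02), by limma-voom (0.75) and in libraries 1 to 3 with (0.81) and without (0.82) the library number as a block. Dynll2 was at 285, 345 and 373 CPM and at 243, 249 and 404 CPM, with injured 3/4 above and injured 1 and 2 below the uninjured range, and it passed by limma-voom alone (-0.42).

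The Tctex family of light chains includes copies that the assay can hardly tell apart. Dynlt1a, Dynlt1b, Dynlt1c and Dynlt1f lie in a cluster on chromosome 17, and in transcripts with a coding length of 339 bases Dynlt1b differed from the other 3 at 1 base while those 3 were identical. Dynlt2a2 and Dynlt2a3, on the same chromosome, differed at 1 of 573 coding bases. Of the 50-base windows in the last 500 bases of their transcripts, at least 88.9% were found unchanged in a transcript of another gene, so values of single copies depend on how reads were assigned. Dynlt1f (0.57, called in 10 of 26 settings), Dynlt2a2 (0.78, 18 of 26) and Dynlt2a3 (2.96, 23 of 23) rose, and Dynlt1a, Dynlt1b and Dynlt1c did not pass. Dynlt2a3 had 24 UMIs in uninjured and 82 in injured libraries, so it met the minimum through the injured group alone. Dynlt1f no longer passed without uninjured 1 (0.61), uninjured 2 (0.60), uninjured 3 (0.52), uninjured 4 (0.48), injured 1 (0.65), injured 2 (0.54) or injured 3 (0.54), in thinned cells (0.51) or among cells with 3 to 5% Malat1 (0.52), and Dynlt2a2 not without injured 1 (0.79), among cells with 3 to 5% Malat1 (0.14) or among cells without markers of another class (0.63). Neither Dynlt1f nor Dynlt2a2 passed with similar libraries summed (0.56 and 0.82) or with injured 1 and 2 alone (0.55 and 0.66). Without the 6 copies, 21 of 43 motor genes passed, 12 higher and 9 lower. Dynlt3, an X-linked light chain of single copy, was at 55.0, 58.5 and 92.4 CPM in uninjured samples and at 87.9, 104 and 106 CPM in injured samples, and rose by 0.55 (SE 0.19). Its samples overlapped through uninjured 6 alone, and its call held in 17 of 26 settings. It was lost without uninjured 1 (0.54), uninjured 2 (0.52), uninjured 3 (0.52), uninjured 4 (0.51), injured 1 (0.63) or injured 2 (0.52), and among cells without markers of another class (0.33). The call was also lost with similar libraries summed (0.55) and with injured 1 and 2 alone (0.52). Dynlt2b, a dynein-2 light chain, had a log2 fold change of -0.55 and did not pass. It passed by upper-quartile factors (-0.60), library totals (-0.61) and limma-voom (-0.47), with injured 1 and 2 alone (-0.73) and without uninjured 4 (-0.60).

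Kinesin-1, the main carrier of fast outward transport, has a heavy chain from Kif5a, Kif5b or Kif5c, and none of the 3 passed the test. Kif5c was at 338, 384 and 426 CPM in uninjured samples and at 358, 351 and 324 CPM in injured samples, and Kif5a, found in neurons, was at 274, 361 and 440 CPM and at 328, 305 and 262 CPM. Kif5b, found in most cells, was at 219, 224 and 245 CPM and at 194, 216 and 179 CPM. Injured and uninjured samples overlapped for Kif5a and Kif5c, while the injured samples of Kif5b lay just below the uninjured range. The log2 fold changes were -0.15 for Kif5c, -0.27 for Kif5a and -0.22 for Kif5b. Kif5a passed without uninjured 5 and 6 (-0.43). The share of Kif5a in the CPM of the 3 genes was 32.5, 37.0 and 40.6% in uninjured and 37.3, 35.0 and 34.3% in injured samples.

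Of the kinesin-1 light chains, which pick cargo, 2 fell and Klc1, which made up most of their CPM, did not pass. Klc1 was at 403, 440 and 553 CPM in uninjured samples and at 581, 576 and 519 CPM in injured samples. The log2 value of 0.26 did not pass (adjusted p = 0.17 in edgeR's quasi-likelihood test, Benjamini-Hochberg), and Klc1 passed in 4 of 26 settings, among them that without uninjured 5 and 6 (0.37). Klc2 was at 37.7, 54.0 and 112 CPM and at 36.4, 34.1 and 36.5 CPM, with injured samples just below the lowest uninjured sample. Klc4 was at 11.6, 14.3 and 18.6 CPM and at 11, 6.96 and 9.40 CPM, again below the uninjured range. Klc2 fell by 0.95 (SE 0.34) and Klc4 by 0.68 (SE 0.21), while Klc3 had a log2 fold change of 0.08 and did not pass. The size of the Klc2 change rests on uninjured 5 and 6, which were at 112 and 109 CPM: without both it was -0.45. It did not pass without uninjured 5 (-0.76), uninjured 6 (-0.77), injured 1 (-0.96) or injured 2 (-0.91), and among cells with 3 to 5% Malat1 it was -0.22 and did not pass. Nor did it pass with similar libraries summed (-0.95), with injured 1 and 2 alone (-0.94) or without the filter on low counts (-0.95). It held in 18 of 26 settings. Klc4 did not pass without injured 2 (-0.53), among cells without markers of another class (-0.61) or with 3 to 5% Malat1 (-0.45), and passed in 21 of 26 settings. Its call was also lost with similar libraries summed (-0.67) and with injured 1 and 2 alone (-0.68). Klc1 made up 78.0 to 86.6% of light chain CPM in uninjured samples and 90.1, 91.1 and 90.0% in injured samples, above the uninjured range.

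Kinesin-2 pairs Kif3a with Kif3b or Kif3c, and Kif17 forms a separate motor of dendrites and cilia. Kif3c, a neuronal partner of Kif3a, was at 71.4, 77.9 and 85.2 CPM in uninjured samples and at 115, 97.2 and 121 CPM in injured samples. Kif3b was at 25.9, 34.8 and 35.9 CPM and at 44.8, 43.6 and 42.0 CPM. In both genes every injured sample was above every uninjured sample, and in edgeR's quasi-likelihood test, Benjamini-Hochberg Kif3c rose by 0.50 (SE 0.12, adjusted p = 0.0046) and Kif3b by 0.43 (SE 0.14, adjusted p = 0.027). Kif3a, the shared subunit, did not pass, at 141, 169 and 183 CPM and at 188, 167 and 176 CPM. The call of Kif3b was lost without injured 1 (0.41) or injured 2 (0.43) and by library totals (0.35) or upper-quartile factors (0.37). It was also lost with similar libraries summed (0.41) and with injured 1 and 2 alone (0.47). Libraries 1 to 3 lost it with (0.27) and without (0.28) the library number as a block. The call was lost too in cells without markers of another class (0.41), in thinned cells (0.35) and among cells with 3 to 5% Malat1 (0.44). It held in 15 of 26 settings. That of Kif3c held in 24 and was lost among cells with 3 to 5% Malat1 (0.44) and with similar libraries summed (0.53). Kif3c made up 67.3 to 75.4% of the CPM of Kif3b and Kif3c in uninjured and 72.0, 69.1 and 74.3% in injured samples, which overlapped. Kif17 moved the other way, at 3.71, 5.32 and 6.17 CPM and at 0.525, 1.57 and 1.34 CPM, and fell by 2.19 (SE 0.33). It had 291 UMIs in uninjured and 29 in injured libraries, so it met the minimum through the uninjured group alone. Its annotated span overlaps the gene Sh2d5 on the same strand.

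Kinesin-3 carries synaptic vesicle precursors and dense core vesicles, and its members did not move as a family. Kif1a, the main neuronal member, was at 260, 341 and 378 CPM in uninjured samples and at 270, 233 and 239 CPM in injured samples. Injured 2 and 3/4 lay below the uninjured range and injured 1 within it. Kif1a fell by 0.42 (SE 0.16, adjusted p = 0.046 in edgeR's quasi-likelihood test, Benjamini-Hochberg), close to the threshold. It passed in 16 of 26 settings and not without uninjured 1 (-0.40), uninjured 2 (-0.36), uninjured 3 (-0.38), uninjured 4 (-0.37), injured 1 (-0.48), injured 2 (-0.37) or injured 4 (-0.40). Nor did Kif1a pass with similar libraries summed (-0.44), with injured 1 and 2 alone (-0.37) or without the filter on low counts (-0.42). Kif1b, which carries mitochondria and synaptic vesicle precursors, was at 360, 463 and 540 CPM and at 519, 491 and 473 CPM, within the uninjured range. Kif1c, at much lower UMI levels, was at 2.80, 3.69 and 4.73 CPM and at 7.88, 6.96 and 8.86 CPM, all above the uninjured range, and rose by 1.05 (SE 0.22). Kif13a, Kif13b and Kif16b, motors of endosomes and other cargo, did not pass, with log2 fold changes of -0.37, 0.30 and 0.02. Kif13a passed without uninjured 5 and 6 (-0.55), without uninjured 6 alone (-0.45) and among cells with 3 to 5% Malat1 (-0.70). The value of Kif16b changed sign by upper-quartile factors (-0.04) and library totals (-0.07), and among cells with 3 to 5% Malat1 it was -0.46 and passed.

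Kinesins that act on microtubules included 2 that rose. Kif2a, of the kinesin-13 family, removes tubulin from microtubule ends and does not carry cargo. It was at 126, 132 and 142 CPM in uninjured samples and at 240, 231 and 219 CPM in injured samples, so the spread within each group was small beside the gap between them. Kif2a rose by 0.79 (SE 0.11, adjusted p = 1.1e-04 in edgeR's quasi-likelihood test, Benjamini-Hochberg) and passed in all 26 settings, between 0.67 and 0.84. The kinesin-4 pair Kif21a and Kif21b, which slow microtubule growth, diverged. Kif21a was at 314, 460 and 471 CPM in uninjured samples and at 346, 324 and 337 CPM in injured samples, inside the uninjured range because uninjured 5 and 6 were at 346 and 314 CPM. It did not pass over all samples (-0.32) and passed without uninjured 5 and 6 (-0.47) and without uninjured 6 alone (-0.39). Kif21b was at 6.74, 11.8 and 13.1 CPM and at 22.9, 21.8 and 21.6 CPM, above the uninjured range, and rose by 0.99 (SE 0.19). Among cells thinned to 8000 UMIs its change of 0.72 no longer passed. Kif21b made up 1.45 to 3.54% of the CPM of the pair in uninjured samples and 6.21, 6.30 and 6.03% in injured samples.

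Several kinesin and dynein genes at low UMI levels changed by a larger factor. Because the minimum of 50 UMIs applies to the sum over all libraries, a gene can reach it through 1 group alone, which favours large changes at such levels. UMIs in uninjured and injured libraries were 865 and 40 for Kif6, 362 and 25 for Dynlt5, 147 and 14 for Kif26a, and 17 and 107 for Kif19b. Kif17 (291 and 29) and Dynlt2a3 (24 and 82), described above, are further such genes. Kif6, a little-studied kinesin-9 of cilia, was at 9.74, 16.1 and 27.8 CPM in uninjured samples and at 1.58, 1.12 and 1.75 CPM in injured samples, far below the uninjured range. It fell by 3.44 (SE 0.38, adjusted p = 2.1e-05 in edgeR's quasi-likelihood test, Benjamini-Hochberg) and passed in 25 of 25 settings. Dynlt5, a Tctex light chain of single copy, was at 5.64, 7.22 and 9.52 CPM and at 1.93, 1.80 and 0.403 CPM, and fell by 2.49 (SE 0.40). Kif26a, a kinesin-11, was at 2.04, 2.56 and 5.39 CPM and at 0.175, 0.449 and 0.806 CPM, and fell by 2.48 (SE 0.48). In these 3 genes all injured samples lay below all uninjured samples. In the other direction, Kif19b, a kinesin-8, was at 0, 0.113 and 0.561 CPM and at 4.38, 2.47 and 4.83 CPM. It had 0 UMIs in uninjured 1, 5 and 6, which allows up to 1.01, 0.552 and 0.680 CPM there, and injured samples exceeded these limits. Kif19b rose by 3.72 (SE 0.54), and by 4.43 without uninjured 4. The other low-level kinesins Kif9, Kif18a, Kif24 and Kif27 did not pass.

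The rise of Kif22 came with more UMIs per cell that had any, as did those of Kif2a, Kif3c, Dync1h1, Dync1i2, Dync1li1 and Dync1li2. Among other genes that rose, such as Kif3b, Dynlt3 and Kif21b, UMIs per cell with a UMI overlapped between groups. Kif22 (chromosome 7, 126626898 to 126641643), a kinesin-10 known for moving chromosomes in dividing cells, was at 16.2, 24.4 and 35.6 CPM in uninjured samples and at 57.3, 68.0 and 45.5 CPM in injured samples, above the uninjured range. It rose by 1.19 (SE 0.22, adjusted p = 9.1e-04 in edgeR's quasi-likelihood test, Benjamini-Hochberg). The rise was smaller in cells thinned to 8000 UMIs (0.38) and in cells without markers of another class (0.29), and did not pass in either, while among cells with 3 to 5% Malat1 it was larger (1.93) and passed. The share of thinned cells with a Kif22 UMI was 14.7, 19.5 and 27.0% in uninjured and 21.6, 18.7 and 16.1% in injured samples, which overlapped, whereas UMIs per cell with a UMI were 1.09, 1.16 and 1.27 and then 1.5, 1.49 and 1.61, without overlap. Those of Kif2a were 1.47, 1.63 and 1.80 and then 2.16, 2.12 and 2.20, and of Kif3c 1.24, 1.35 and 1.42 and then 1.54, 1.5 and 1.71. Unlike that of Kif22, the share of thinned cells with a Kif2a UMI was also higher in injured samples without overlap. None of the 50-base windows in the last 500 bases of the Kif22 transcript was found in a transcript of another gene. The cycling cell list summed to 2.55 to 5.63 CPM in uninjured and 1.49 to 4.04 CPM in injured libraries.

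Within injured samples, Kif22 UMIs followed a set of genes from cell to cell. Over 9624 genes in thinned cells, the highest mean correlations with Kif22 across the 3 injured samples were those of Neto1 (r = 0.449), Rac3 (0.439), Ifi202b (0.428), B2m (0.422), Ly6e (0.419), Sprr1a (0.418), Sdc1 (0.411), Tubb3 (0.403), Clu (0.385) and Fxyd7 (0.378). These genes were chosen after their values were seen, and the cells of a sample share their library. In uninjured samples the mean r of the 8 genes that could be compared there was -0.01 to 0.06. Neto1 encodes a receptor-associated membrane protein, B2m the light chain of MHC class I, Sprr1a a protein known from regrowing axons, and Tubb3 a neuronal tubulin. A Neto1 UMI was found in 69 thinned cells of injured 1, 45 of injured 2, 90 of injured 3 and 82 of injured 4, beside 237, 206, 370 and 277 without. Injured 3 and 4 share barcodes, so their cells are in part the same, and their levels were averaged. Neto1 was chosen by its correlation with Kif22 in these same cells, so a gap in Kif22 followed from that choice and is no separate result. In cells with a Neto1 UMI, Kif22 was at 127, 125 and 95.2 CPM, and in the others at 15.3, 15.2 and 15.5 CPM (UMIs of thinned cells, without factors). Of 4 genes of dividing cells, Top2a was at 0 CPM in both, and the means with and without a Neto1 UMI were 2.13 and 0.678 CPM for Mki67, 1.32 and 0.495 CPM for Birc5, and 0.254 and 0.383 CPM for Cdk1.

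The same split separated other motor genes, which did not enter the choice of Neto1. Of the 51 motor genes, 12 were higher with a Neto1 UMI in all 3 samples and 15 lower. Of the 35 found in at least 5% of cells of every injured library, these were 11 and 10 (31.4 and 28.6%), beside 19.3 and 27.8% of all 9624 such genes. Both counts of higher genes include Kif22, by which Neto1 was chosen and whose place there was fixed by that choice. Cells with a Neto1 UMI had higher Dync1i1 (198, 153 and 177 CPM, beside 111, 86.8 and 106 CPM without), so among injured cells the intermediate chain that fell after ONC was higher in these cells. Klc1 was also higher there (779, 797 and 550 CPM, beside 439, 413 and 464 CPM), as was Dync1h1 (386, 314 and 277 CPM, beside 260, 215 and 190 CPM). Kif5a, Kif5c, Kif1a, Kif1b and Klc2 were higher in all 3 samples, with ratios of means of 1.29, 1.21, 1.22, 1.25 and 1.63. The reverse held for Dync1i2 (297, 292 and 288 CPM, beside 382, 390 and 320 CPM), Dync1li1 (127, 106 and 136 CPM, beside 178, 141 and 188 CPM) and Kif3a (134, 133 and 130 CPM, beside 196, 160 and 192 CPM). Dynlt2b, Klc4, Kif16b and Dync2h1 were also lower in all 3 samples, with ratios of 0.603, 0.650, 0.687 and 0.812. Kif2a and Kif5b, with ratios of 1.09 and 1.00, differed little. These are descriptions of 3 samples without a test. RGC markers differed too. Means with and without a Neto1 UMI were 1983 and 833 CPM for Tubb3, and 685 and 388 CPM for Slc17a6. Those of Rbpms were 223 and 338 CPM. The reporter mCherry was at 58.0, 703 and 1409 CPM with and 92.3, 232 and 2490 CPM without a Neto1 UMI. The part of these genes was not tested.

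**Figure D4:**
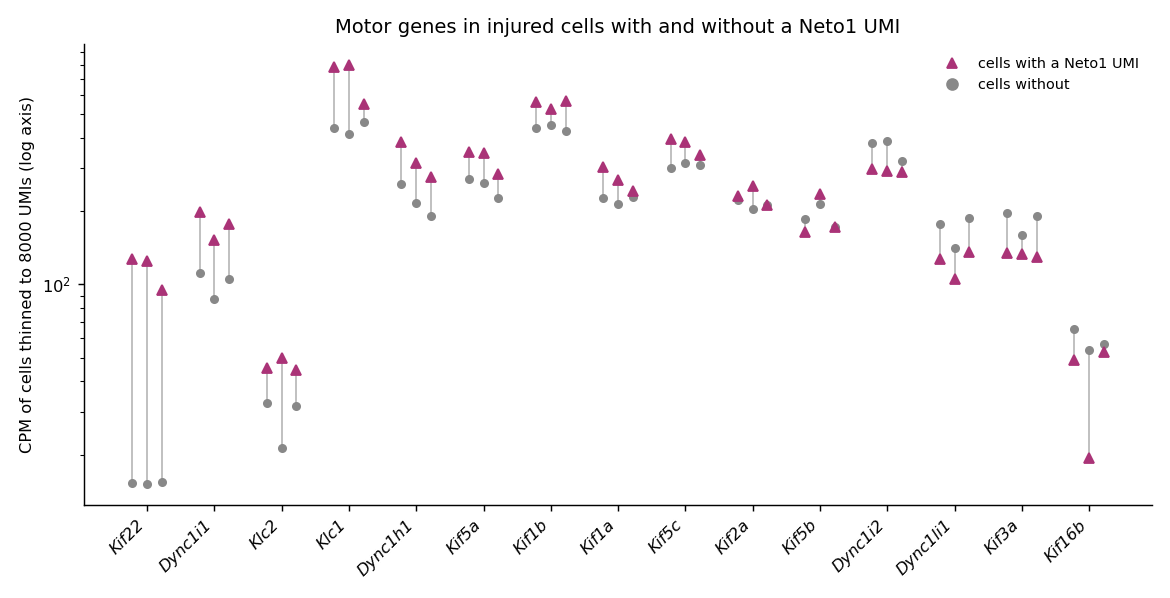
CPM (log axis) of 15 motor genes in injured cells of at least 8000 UMIs, each thinned to 8000. Triangles are cells with a Neto1 UMI and circles those without, for injured 1, 2 and 3/4 from left to right within each gene. Kif22, by which Neto1 was chosen, lies at 95.2 to 127 CPM with and 15.2 to 15.5 CPM without; Dync1i1, Klc1 and Dync1h1 lie higher and Dync1i2, Dync1li1 and Kif3a lower with a Neto1 UMI in all 3 samples.

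Shares of cells with a UMI followed depth, so they were compared in cells thinned to 8000 UMIs. Before thinning, uninjured libraries had a median of 20437 to 34337 UMIs per cell, and injured libraries 11257 to 14695. In thinned cells the median share over the 51 genes was 22.5% in uninjured and 17.8% in injured samples, and the median difference was -0.391 points. Shares in injured samples lay above the uninjured range for 8 genes and below it for 11 (15.7 and 21.6%), beside 13.7 and 17.4% of the 15966 features with at least 50 UMIs, whose median difference was -0.402 points. Thinning to 5000 UMIs gave a median difference of 0.395 points, with 7 genes above the uninjured range and 7 below it. Cells without thinning gave -8.08 points, with 2 genes above and 28 below. Kif6 was in 5.50 to 13.2% of uninjured thinned cells and in 0.654, 0.797 and 1.49% of injured thinned cells, without overlap.

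Of the dynein-1 core chains, 4 were separate in share as in level, and Dync1h1 was separate in level alone. Dync1i1 was found in 66.5, 71.7 and 77.6% of uninjured thinned cells (lowest, median and highest sample) and in 51.0, 46.2 and 48.1% of injured thinned cells. Dync1li1 went the other way, from 42.2, 48.5 and 54.9% to 67.0, 63.4 and 73.4%. The groups did not overlap for either gene, nor for Kif2a (56.9 to 70.6% and 83.0, 80.5 and 77.2%). Dync1h1 was found in 59.0, 66.7 and 78.1% and in 88.6, 79.3 and 77.1%, which overlapped. The share of Dync1i2 overlapped when cells were thinned to 5000 UMIs (57.0 to 76.3%, then 81.2, 85.6 and 75.8%). Without thinning, the shares of Dync1i2, Dync1li1 and Dync1li2 overlapped. Among the light chains, the share of Dynlt2b was below the uninjured range (18.9 to 27.5%, then 12.1, 15.9 and 18.4%), although its level overlapped. Thinned to 5000 UMIs, this share overlapped (10.3 to 19.0%, then 6.87, 10.7 and 12.0%).

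**Figure D5:**
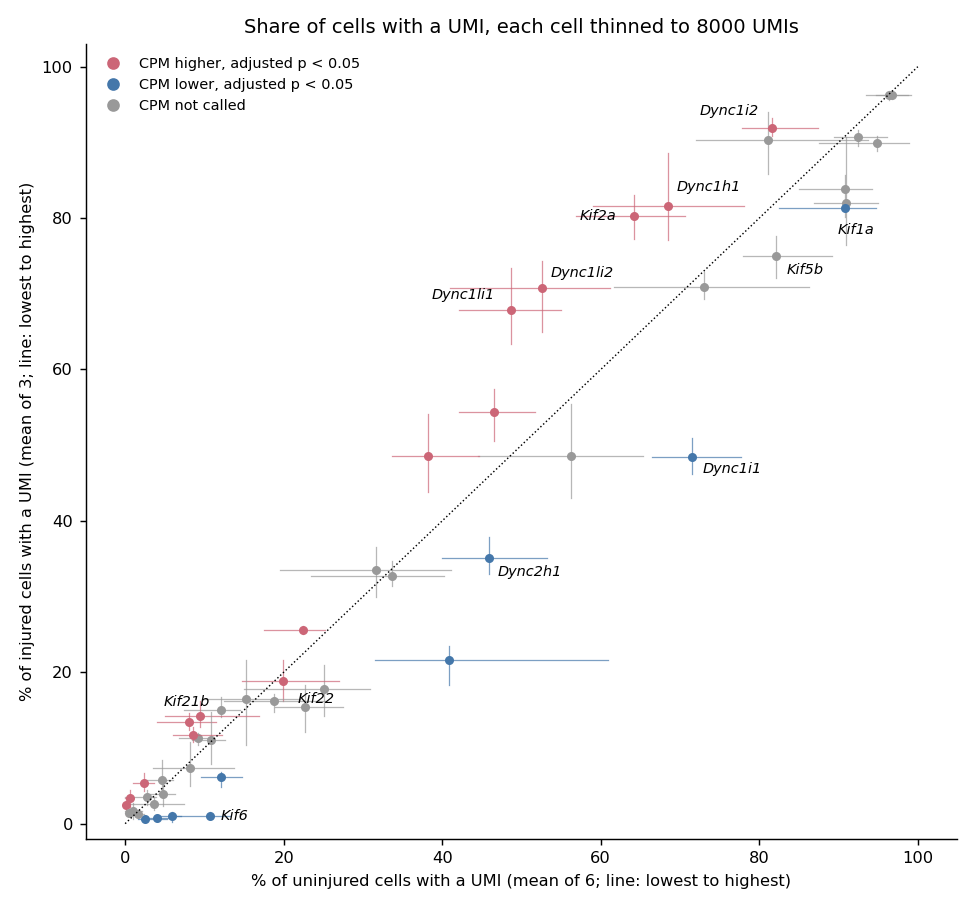
Share of thinned cells with a UMI of each of the 51 motor genes, mean of 6 uninjured samples (horizontal) against mean of 3 injured samples (vertical), with lines from the lowest to the highest sample; the dotted line marks equal shares. Dync1i1 lies below the line (48.4% injured, 71.5% uninjured) and Dync1li1, Dync1li2 and Kif2a above it.

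Genes that work with the motors passed the test about as often as other genes. Of 58 listed partners, 52 were tested, and 8 rose (15.4%, beside 21.3% of all genes) and 12 fell (23.1%, beside 22.7%), with a median log2 fold change of -0.10. In all, 38.5% passed, beside 44.0% of all genes. Dynactin, the complex that makes dynein processive, gave 1 rise and 1 fall among 12 genes (16.7% passed), with a median of -0.02. The fall was Dctn1, the microtubule-binding subunit (-0.64), and the rise was Capza1 (0.30), both named after their values were seen. Dctn1 passed in all 26 settings and Capza1 in 10. Dynein regulators and adaptors gave 3 rises and 2 falls among 13 genes tested (38.5%), and kinesin partners and adaptors 4 rises and 9 falls among 27 (48.1%), with a median of -0.23.

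The partners with the largest changes included a motor and adaptors of both directions. Clstn1, a membrane protein that binds kinesin light chains, was at 289, 396 and 424 CPM in uninjured samples and at 149, 133 and 128 CPM in injured samples, and fell by 1.43 (SE 0.17). Kifc2, a minus-end kinesin of neurons, was at 24.3, 30.9 and 50.1 CPM and at 7.53, 6.74 and 6.18 CPM, and fell by 2.40 (SE 0.27). Hook1, Hook2 and Ppfia3 fell by 1.02, 1.16 and 1.13. The Hook proteins link dynein to endosomes, and Ppfia3 encodes a liprin-alpha that binds Kif1a. In the other direction, Ppfia2, another liprin-alpha, was at 285, 353 and 395 CPM and at 742, 674 and 673 CPM, and rose by 1.03 (SE 0.15). Plekhm2, which couples lysosomes to kinesin-1, was at 30.1, 34.9 and 39.2 CPM and at 108, 85.6 and 94.8 CPM, and rose by 1.46 (SE 0.13). Nin, an activator of dynein, rose by 1.61, Hap1, which binds dynactin, by 1.16 and Mapk8ip1, a kinesin-1 adaptor, by 0.76. In each of these 10 genes the injured samples lay outside the uninjured range, and each passed in all 26 settings.

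Levels within the uninjured group differed for part of the list. Of 28 motor genes with a mean of at least 20 CPM, 4 were more than 1.5-fold higher in uninjured 5 and 6 than in uninjured 1 to 4 and 4 were more than 1.5-fold lower. Those higher were Klc2 (110 and 48.0 CPM), Dynll1 (438 and 228 CPM), Dynlt3 (89.9 and 57.1 CPM) and Kif22 (32.4 and 21.6 CPM). Those lower were Kif26b (26.1 and 46.2 CPM), Kif13b (35.0 and 56.8 CPM), Kif16b (37.9 and 61.4 CPM) and Kif13a (88.3 and 137 CPM). These 8 genes were picked after their values were seen. The dynein-1 core chains Dync1li1 and Dync1i1, and Kif2a, differed little between these libraries, at 90.2 and 91.8 CPM, 184 and 194 CPM, and 128.5 and 136 CPM.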

How the data were processed

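Cells were counted by UMIs, and the authors deposited the values as counts, 1 matrix per library, made with Cell Ranger 7.0.1 per the labels. Counts were summed per library; injured 3 and 4 were averaged. edgeR 4.0.16 in R 4.3.3 (default filter on low counts, trimmed mean of M values, quasi-likelihood test, Benjamini-Hochberg threshold 0.05) compared 3 injured with 6 uninjured samples over 14234 genes, and was tested on simulated data, where it recovered most changes of the largest size and few of the smallest. No step called doublets; an alternative dropped any cell that carried 3 or more markers of a non-RGC type. Shares of cells were computed in cells with at least 8000 UMIs, each thinned to 8000, and cells with fewer were left out. Named genes were all members of kinesin-1, -2 and -3 and of dynein, members of other families past the threshold or among the 3 most abundant, and the 5 largest partner rises and falls; others are marked where named. Members and lists were chosen with earlier results of these data known. Alternatives were DESeq2 1.42.0, limma 3.58.1, other scalings, filters and cell sets, summed or left-out libraries and a replicate block; leaving out uninjured 5 and 6 was added after seeing the data. Positions come from GENCODE's annotation of GRCm39, the labels' build, and promoters from RefSeq (GRCm38.p6). Python 3.11.15 made tables and figures.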

Additional observations from a re-analysis of the deposited data

Results flagged for a closer look

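In groups of 6 uninjured samples, 121 sets of values were examined for a sample far from the others, and 2 stood out; chance alone gives about 1 in 20. Both were Kif26a in uninjured 1, whose level of 5.39 CPM and share of 5.26% of thinned cells lay far above the other uninjured samples.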

How the results depend on the processing

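Of 1153 values of 45 named motor genes under 26 alternatives, 1008 stayed as they were, 84 lost the call, 39 gained it and 22 changed sign; all 260 values of 10 named partners stayed. Sign changes came only in genes that had not passed: Kif16b (limma-voom -0.12, upper quartile -0.037, library totals -0.068, cells with 3 to 5% Malat1 -0.46, which passed there, libraries 1 to 3 -0.17 with and without the replicate block, without uninjured 5 and 6 -0.19, single libraries left out -0.076 to 0.103), Kif1b (Malat1 cells -0.024, libraries 1 to 3 -0.0011, without uninjured 5 and 6 -0.026), Kif3a (Malat1 cells -0.057), Kif13b (Malat1 cells -0.017), Klc3 (similar libraries summed -0.0077, single libraries left out -0.026 to 0.176), Dynlt1a (single libraries left out -0.015 to 0.264) and Dynlt1b (cells without markers of another class 0.0031, injured 1 and 2 alone 0.21, single libraries left out -0.44 to 0.14). Counts moved too. All genes past the threshold (6256) were 3528 in Malat1 cells and 4961 to 6420 with single libraries left out. Motor genes higher (15) were 9 in thinned cells, 7 in Malat1 cells, 8 with similar libraries summed and 11 to 16 with single libraries left out. Motor genes lower (9) were 16 by limma-voom, 5 with at least 10 counts, 4 with similar libraries summed, 5 with injured 1 and 2 alone, 14 in libraries 1 to 3 without the block, 15 without uninjured 5 and 6, and 5 to 10 with single libraries left out. Partners higher (8) were 15 by limma-voom, 5 with similar libraries summed, 13 without uninjured 5 and 6, and 6 to 8 with single libraries left out; partners lower (12) were 10 to 13. The median difference in share of cells (-0.391) was -8.08 unthinned and 0.395 thinned to 5000 UMIs. The cause of these moves was not tested. In libraries 1 to 3, 6313 genes passed with the replicate block and 6609 without, and the library numbers share only a number (r -0.0412, 0.018 and -0.0481 for libraries of the same number).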
